A study of Mus musculus with 6 samples.

Results

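The cardiac receptors for catecholamines, acetylcholine and adenosine, together with the main adenylyl cyclases of heart muscle, were followed in mouse hearts in which Camk2d had been targeted by base editing. The members were taken by symbol from the deposited count table: Adrb1, Adrb3, Adra1a, Adra1b, Drd2, Chrm2, Adora1, Adcy5 and Adcy6, 9 of 35976 genes, all of them found in the table. All 6 libraries came from heart tissue of mice labelled WT. The 3 edited hearts had been given a single AAV that carried the adenine base editor TadA8e joined to the Cas9 called Sauri under a MYL2 promoter, which is active in heart muscle cells, and a guide named Camk2d sgRNA7 under a U6 promoter. The 3 control hearts had no treatment, so virus, editor, guide and edit all separate the groups at once, and the effects of these cannot be told apart. The labels name no strain, age, sex, vector dose or time after injection. No label says that replicates are separate animals, and p-values therefore describe sample-to-sample spread, which may be technical.

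In the heart, noradrenaline and adrenaline act mainly on beta-1 receptors, which couple through the stimulatory G protein to adenylyl cyclase, and the cAMP made there activates protein kinase A. Acetylcholine at M2 muscarinic receptors and adenosine at A1 receptors couple to inhibitory G proteins, which lower cAMP and open potassium channels in atrial and nodal cells. The alpha-1 receptors couple to Gq and phospholipase C instead. The D2 dopamine receptor is coupled to inhibitory G proteins and is best known from brain.

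Of the receptor RNAs 4 fell in the edited hearts, while neither cyclase of heart muscle passed the test. Of the 8 members that could be tested, 4 fell and 0 rose: Drd2 to 26.9% of the control level, Adra1a to 48.8%, Adora1 to 68.8% and Adra1b to 71.9%. In each of these 4 genes every edited library lay below every control library. For comparison, 9.66% of the 14879 tested genes were called in either direction and 4.74% were called lower. A called fall of at least 2-fold, as in Drd2 and Adra1a, was seen for 0.39% of tested genes, and the groups did not overlap for 29.3% of them. The median log2 change of the 8 tested members was -0.36, beside 0.00 over all tested genes. The call counts come from edgeR's quasi-likelihood test with adjusted p values (Benjamini-Hochberg over all tested genes, threshold 0.05), and levels are CPM (counts scaled to library size) after TMM scaling. The remaining 4 tested members, Adrb1, Chrm2, Adcy5 and Adcy6, did not pass that threshold, and Adrb3 had too few reads to be tested.

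**Figure D1:**
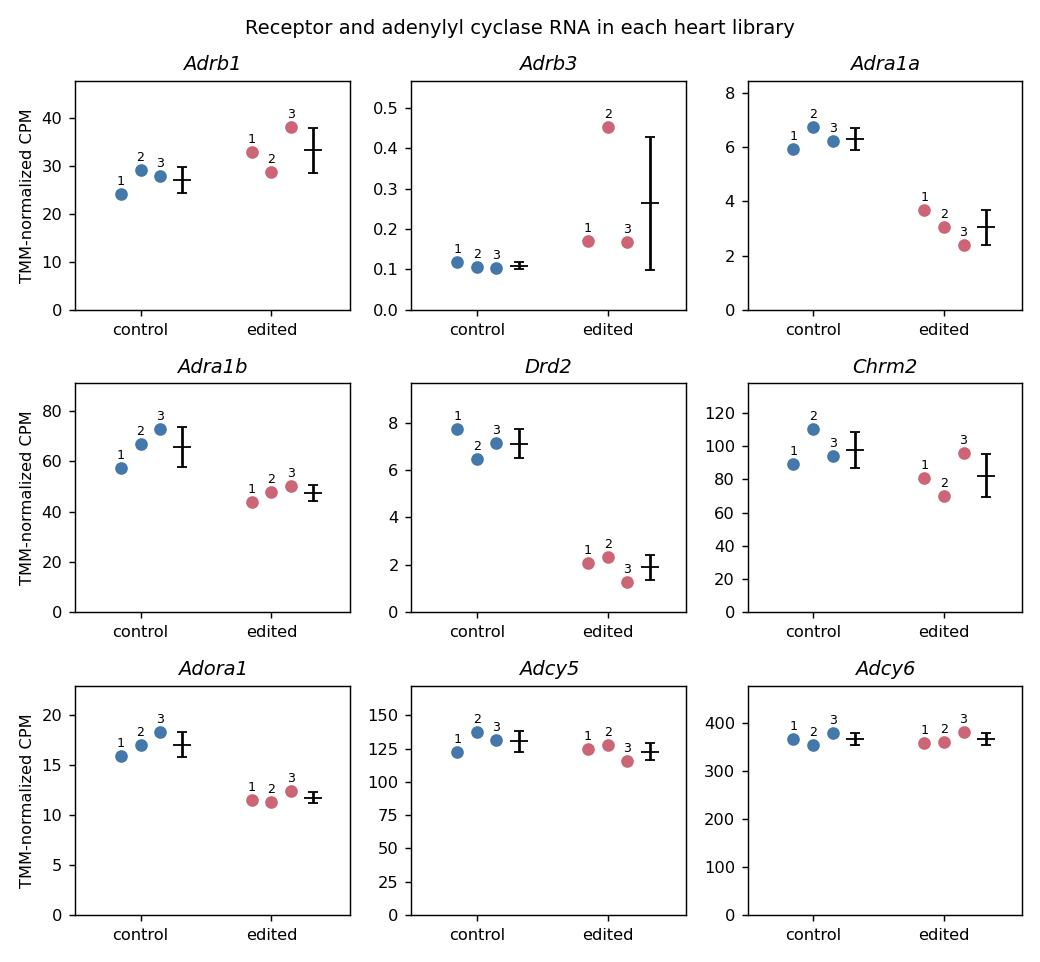
TMM-normalized CPM of each of the 9 members in the 3 control (blue) and 3 edited (red) libraries, numbered by replicate, with the mean and SD in black and each y axis starting at 0. Edited libraries lie below all control libraries for Adra1a, Adra1b, Drd2 and Adora1, and the groups overlap for Adrb1, Chrm2, Adcy5 and Adcy6.

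Total counts ran from 17062412 to 23097998 per library. The target Camk2d stood at 220 to 226 CPM in controls and at 130 to 164 CPM in edited hearts, so its level went with the labels. Heart muscle was plain in all libraries, with Myh6 between 31031 and 38098 CPM. Atrial RNA was uneven: the 7 atrial markers summed to 83.6 CPM in control 1 and 60.3 in control 3, but to 1973 in control 2 and between 1222 and 2776 in the edited hearts. Markers of the mesothelium, the outer lining of the heart, also moved with the groups: of 7 tested, 5 were called higher and 1 (Wt1) lower, with a median log2 change of 1.91 and no overlap of the groups in any. They summed to 27.2 to 27.4 CPM in controls and 30.1 to 51.3 CPM in edited hearts, and their part in the changes of the receptors and pathway genes was not tested. For the uneven atrial RNA, results for the members were also obtained with the atrial gene Myl7 as a covariate and with controls 1 and 3 left out. Myl7 itself was higher in every edited heart (371 to 914 CPM) than in any control (0.209 to 332 CPM), so this covariate is partly bound to the group. The atrial sum of control 2 lay within the edited range, but its atrial gene Bmp10 did not, at 1933 reads against 0, 0 and 2 in edited hearts. In bulk tissue, fewer cells of a type and less RNA per cell cannot be told apart.

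Drd2 encodes the D2 dopamine receptor. The gene spans chr9:49340428-49408177 on the plus strand of mm10, with 8 merged exons in the authors' annotation. Controls 1, 2 and 3 had 129, 123 and 137 of its reads, and edited hearts 1, 2 and 3 had 49, 41 and 23. In CPM this was 7.71, 6.48 and 7.15 against 2.09, 2.32 and 1.28. Every control lay well above every edited heart, and edited 3 was the lowest of all. The estimated log2 change was -1.89 (SE 0.19, adjusted p 1.15e-04, edgeR). At ±2 SE this spans 20.6% to 35.0% of the control level. By estimated size it ranked 2 among the 705 genes called lower. Drd2 was the member whose call held under every alternative tried, with log2 changes between -2.11 and -1.69 and an adjusted p of at most 0.0464. Of its exon bases 5.54% are shared with the antisense loci LOC108167651 and LOC108167652, which had at most 1 read in any library.

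Both alpha-1 receptors among the members fell, and the difference in degree between them was not tested. Adra1d, another alpha-1 receptor outside the members, was not called (log2 0.29, SE 0.21, adjusted p 0.433, edgeR). Adra1a, on chromosome 14 from 66635013 to 66771240, encodes the alpha-1A receptor. It had 99, 128 and 119 reads in controls and 86, 54 and 43 in edited hearts, or 5.92, 6.74 and 6.21 CPM against 3.67, 3.05 and 2.40 CPM. The edited libraries were spread more widely than the controls, and the groups were well apart. The log2 change was -1.04 (SE 0.17, adjusted p 0.00198, edgeR), or 38.7% to 61.4% of the control level at ±2 SE. With control 2 as the only control the adjusted p was 0.0903 at a log2 change of -1.14.

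Adra1b, on chromosome 11 from 43774605 to 43901245, encodes the alpha-1B receptor and was more abundant here than Adra1a. It measured 57.3, 66.9 and 72.7 CPM in controls and 43.9, 47.8 and 50.1 CPM in edited hearts. Control 1 was the lowest control and still lay above the highest edited heart. The log2 change was -0.48 (SE 0.08, adjusted p 0.00500, edgeR), or 64.0% to 80.8% of the control level. The call was lost with Myl7 as a covariate (log2 -0.42, adjusted p 0.146) and with control 2 as the only control (log2 -0.51, adjusted p 0.0696). Set per length, Adra1a made up 2.43%, 2.37% and 2.02% of Adra1a and Adra1b together in controls and 1.97%, 1.52% and 1.14% in edited hearts. This share was chosen after the values were seen and was not tested.

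Adora1 encodes the A1 adenosine receptor and lies on chromosome 1 from 134199215 to 134235457. Controls held 15.8, 16.96 and 18.3 CPM of it, and edited hearts 11.5, 11.3 and 12.4 CPM. The edited libraries lay close together and below all controls, including control 2 with its atrial RNA. The log2 change was -0.54 (SE 0.09, adjusted p 0.00225, edgeR), or 60.9% to 77.7% of the control level. The change was nearly the same with Myl7 as a covariate (log2 -0.49, adjusted p 0.0951) and with control 2 as the only control (log2 -0.54, adjusted p 0.115), but neither passed the threshold. Of the Adora1 exon bases, 24.4% are shared with Mybph on the opposite strand. Mybph had 0 to 3 reads per library, and the labels do not say how reads in the shared stretch were counted.

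The stretches just upstream of the starts of Drd2, Adora1 and Adra1b are shown because these receptors fell together. They come from RefSeq (GRCm38.p6), whose promoters cover 6 of the 9 members, while Adra1a, Adrb3 and Adcy6 were not matched. Chrm2 was matched, but its 250 bases held no stretch free of annotated exons, so it was not searched. Each is written 5′ to 3′ on the strand of the gene and ends at or just before the first exon. Capitals mark matches, on either strand, to the GC box, spelled GGGCGG, or to the CCAAT box, spelled as in its name.
Drd2 promoter, chr9:49340153-49340402, plus strand: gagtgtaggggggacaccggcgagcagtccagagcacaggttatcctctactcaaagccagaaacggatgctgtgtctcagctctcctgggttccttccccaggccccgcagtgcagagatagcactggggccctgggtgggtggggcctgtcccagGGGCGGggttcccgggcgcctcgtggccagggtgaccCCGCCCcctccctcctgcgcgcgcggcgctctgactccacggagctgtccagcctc
Adora1 promoter, chr1:134235458-134235707, minus strand: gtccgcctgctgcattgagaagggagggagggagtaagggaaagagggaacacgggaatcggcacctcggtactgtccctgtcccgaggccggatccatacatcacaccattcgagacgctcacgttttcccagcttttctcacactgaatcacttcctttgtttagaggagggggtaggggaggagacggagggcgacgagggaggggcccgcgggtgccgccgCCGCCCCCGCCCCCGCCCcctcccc
Adra1b promoter, chr11:43901246-43901487, minus strand: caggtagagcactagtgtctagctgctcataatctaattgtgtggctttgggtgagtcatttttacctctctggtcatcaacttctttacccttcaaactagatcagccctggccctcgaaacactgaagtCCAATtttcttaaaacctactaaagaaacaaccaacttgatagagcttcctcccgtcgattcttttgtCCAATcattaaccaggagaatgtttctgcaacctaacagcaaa
The upstream stretch of Drd2 is 68.8% G and C and holds 2 GC boxes, and that of Adora1 is 64.4% G and C with 3 GC boxes near its end. Adra1b differs: 41.7% of its bases are G or C, it has no GC box and it holds 2 CCAAT boxes. A GC box occurs in 32.7% and a CCAAT box in 33.8% of the 32851 RefSeq promoters over the same 250 bases, and in 31.6% and 33.2% over the 242 bases used for Adra1b. Also searched on both strands, and not found in these 3 windows, were TATAAA for the TATA box, TGACG for the cAMP response element half-site, AAAGGTCA for the response element of NR4A receptors and CATTCC for the M-CAT element. They occur in 12.4%, 17.8%, 1.3% and 12.6% of all promoters over 250 bases. The 3 GC boxes of Adora1 lie next to each other, and no match overlaps one of another motif. GC boxes were also present in members that did not pass the test: the window of Adcy5 holds 4 at 78.0% G and C, and that of Adrb1 holds 1, with 1 CCAAT box and 1 TGACG, at 74.0% G and C. In the authors' annotation these 2 windows end further from the gene: at 35154863 before a start of 35155636 for Adcy5. For Adrb1 the window ends at 56722116 and the gene starts at 56722372. GC boxes were thus found in windows of receptors that fell and of members that did not pass, while Adra1a and Chrm2 had no window searched.

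Of the beta receptors, Adrb1, the main receptor through which noradrenaline speeds and strengthens the heartbeat, was not among those that fell. The gene is 1 exon at chr19:56722372-56724862. Its levels were 24.2, 29.3 and 27.9 CPM in controls and 33.0, 28.9 and 38.2 CPM in edited hearts. Edited 1 and 3 lay above all controls, and edited 2 lay within the control range. The log2 change was 0.30 (SE 0.10, adjusted p 0.102, edgeR), or 106% to 142% of the control level at ±2 SE. Adrb1 did pass without edited 2 (adjusted p 0.0140), without a filter on low counts (adjusted p 0.00353) and with limma voom (adjusted p 0.0212). With control 2 as the only control its log2 change was 0.18.

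Adrb1 was estimated at 123% and Adra1b at 71.9% of the control level. Per length, Adra1b made up 60.4%, 59.5% and 62.6% of these 2 transcripts in controls and 46.1%, 51.5% and 45.7% in edited hearts. The groups do not overlap in this share, which was chosen after the values were seen and was not tested.

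Adrb3, the beta-3 receptor of fat cells that also occurs in heart, was at the edge of detection (chr8:27225776-27230807). It had 2 reads in each control and 4, 8 and 3 reads in edited hearts, and did not pass the filter on low counts. Tested without that filter it had an adjusted p of 0.441 (edgeR). Edited 2, with the most Adrb3 reads, also held the most RNA of the 9 adipocyte markers, at 70.0 CPM in sum against 26.5 and 30.8 CPM in the other edited hearts and 29.3 to 31.8 CPM in controls. Among these markers Ucp1 reached 28.2 CPM there, and Retn had 0 reads in all libraries. Whether fat cells had a part in the Adrb3 reads was not tested.

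Chrm2, the M2 muscarinic receptor that slows the heart, lies at chr6:36388084-36528638. It measured 89.3, 110 and 93.9 CPM in controls and 80.5, 70.0 and 95.6 CPM in edited hearts. Edited 3 lay inside the control range, while edited 1 and 2 lay below it. The log2 change was -0.25 (SE 0.13, adjusted p 0.280, edgeR), with a ±2 SE range of -0.51 to 0.00. Chrm2 was highest in control 2 among controls and in edited 3 among edited hearts, the libraries with the highest sums of atrial markers in their groups. With Myl7 as a covariate its log2 change was -0.42 (adjusted p 0.274), and without edited 3 it was -0.38 (adjusted p 0.0477). Of its exon bases 1.32% are shared with 9330158H04Rik on the other strand, which had 96 to 133 reads.

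The main cyclases of heart muscle, Adcy6 (chr15:98589978-98610140) and Adcy5 (chr16:35155636-35304549), had the smallest standard errors of the tested members. Adcy6 measured 366, 355 and 379 CPM in controls and 359, 361 and 382 CPM in edited hearts, with wide overlap. Its log2 change was 0.00 (SE 0.05, adjusted p 0.982, edgeR), and ±2 SE spans 93.2% to 108% of the control level. Adcy5 measured 122, 138 and 132 CPM in controls and 125, 128 and 116 CPM in edited hearts, with a log2 change of -0.09 (SE 0.06, adjusted p 0.396). For Adcy5 ±2 SE spans 86.6% to 102% of the control level. Per length, the share of Adcy5 in both cyclases was 35.0 ± 1.8% for controls and 33.6 ± 1.9% for edited hearts (SD, n = 3), which overlap.

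**Figure D2:**
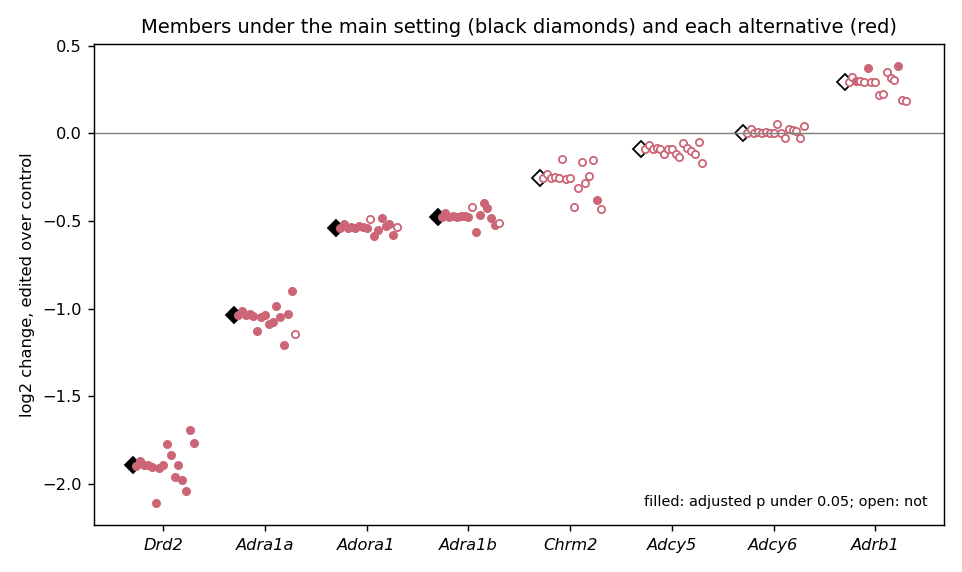
Log2 change (edited over control) of the 8 tested members with all libraries and the main settings (black diamonds) and under each alternative (red), filled where the adjusted p was under 0.05. Drd2 stays between -2.11 and -1.69 and is filled throughout, while Adcy6 stays between -0.03 and 0.05 and is never filled.

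Levels can be compared between genes per length only, as CPM per kilobase of all annotated exon bases. On that scale in controls Adcy6 was highest (48.0 ± 1.6), followed by Adcy5 (25.8 ± 1.5), Adra1b (16.9 ± 2.0), Chrm2 (16.4 ± 1.8), Adrb1 (10.9 ± 1.1), Adora1 (2.93 ± 0.21), Drd2 (2.59 ± 0.23), Adra1a (0.391 ± 0.026) and Adrb3 (0.0313 ± 0.0024; SD, n = 3). Adra1b and Chrm2 overlapped in range, as did Adora1 and Drd2, while all other neighbours in the order were apart. In edited hearts the middle of the order differed: Chrm2 (13.7 ± 2.2), Adrb1 (13.4 ± 1.9) and Adra1b (12.2 ± 0.81) came in this order and overlapped in range. Drd2, at 0.691 ± 0.198, no longer overlapped Adora1, at 2.02 ± 0.10. Adra1a is annotated with 16110 exon bases, and its level per length would be higher if shorter transcripts are the ones used.

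**Figure D3:**
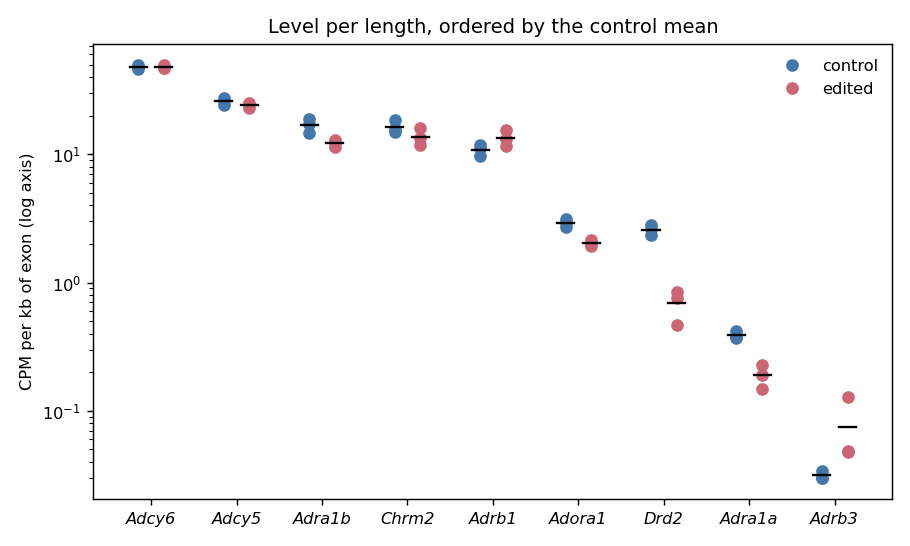
CPM per kilobase of exon on a log axis for each member, ordered by the control mean, with 3 control (blue) and 3 edited (red) libraries and black bars at the means. Adcy6 and Adcy5 lead in both groups, and the edited libraries of Drd2 lie apart from those of Adora1.

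The other genes of these pathways were taken as 11 lists with 155 genes in the table, of which 127 were tested. Of these 10 rose and 8 fell, or 18 of 127, and their median log2 change was 0.00. Among all tested genes 4.93% were called higher and 4.74% lower. None of the 3 tested adrenergic or dopamine receptors outside the members was called (Adra1d was the highest per length, at 3.05 ± 0.20 CPM for controls and 3.77 ± 1.15 CPM for edited hearts), nor any of the 3 tested muscarinic or adenosine receptors, led by Adora2a (22.96 ± 2.19 and 24.8 ± 1.9 CPM; SD, n = 3). In edgeR at an unadjusted p under 0.05, in DESeq2 and in limma voom the counts were 0 for both groups of receptors. Drd1, Drd3, Drd4 and Drd5 did not pass the filter on low counts, which left Drd2 as the dopamine receptor that could be tested. Drd1 was at 0.359, 0.474 and 0.679 CPM against 0.298, 0.0566 and 0.168 CPM. With Myl7 as a covariate 2 of the pathway genes were called (Cacnb2 and Pln), and with control 2 as the only control 1 was (Cacnb2).

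Of the genes that make and clear catecholamines, 10 were tested, 2 fell and 1 rose. For comparison, 4.74% of all tested genes were called lower and 4.93% higher. Ddc, the decarboxylase that makes dopamine from DOPA, measured 66.5, 53.7 and 49.6 CPM in controls and 34.1, 27.9 and 22.5 CPM in edited hearts (50.1% of the control level, adjusted p 0.0319, edgeR). Dbh, which turns dopamine into noradrenaline, measured 9.39, 8.27 and 10.4 CPM against 4.39, 5.37 and 5.64 CPM (log2 -0.87, SE 0.14, adjusted p 0.00167). Maoa, a monoamine oxidase that breaks these amines down, went up from 6.28, 7.06 and 8.20 CPM to 9.85, 10.3 and 10.9 CPM (log2 0.52, SE 0.12, adjusted p 0.0136). The groups did not overlap in any of the 3, nor did they in 29.3% of all tested genes. Th, the first enzyme of the pathway and a marker of sympathetic neurons, had 0 reads in all controls and in edited 1. It reached 1.01 CPM in edited 3, the library richest in autonomic neuron markers. Of the 7 tested neuron markers 1 (Uchl1) was called higher and 1 (Dbh itself) lower, with a median log2 change of 0.55. The groups did not overlap for 4 of the 7: Dbh lay lower in edited hearts, and Uchl1, Stmn2 and Slc5a7 higher. Calls for Ddc were lost without control 2 (adjusted p 0.0773), control 3 (0.0616) or edited 2 (0.140), and those for Maoa without control 1 (0.0649) or edited 3 (0.0635). All 3 were lost with Myl7 as a covariate (adjusted p 0.107 to 0.291) and with control 2 as the only control (0.190 to 0.232), at log2 changes of the same sign.

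**Figure D4:**
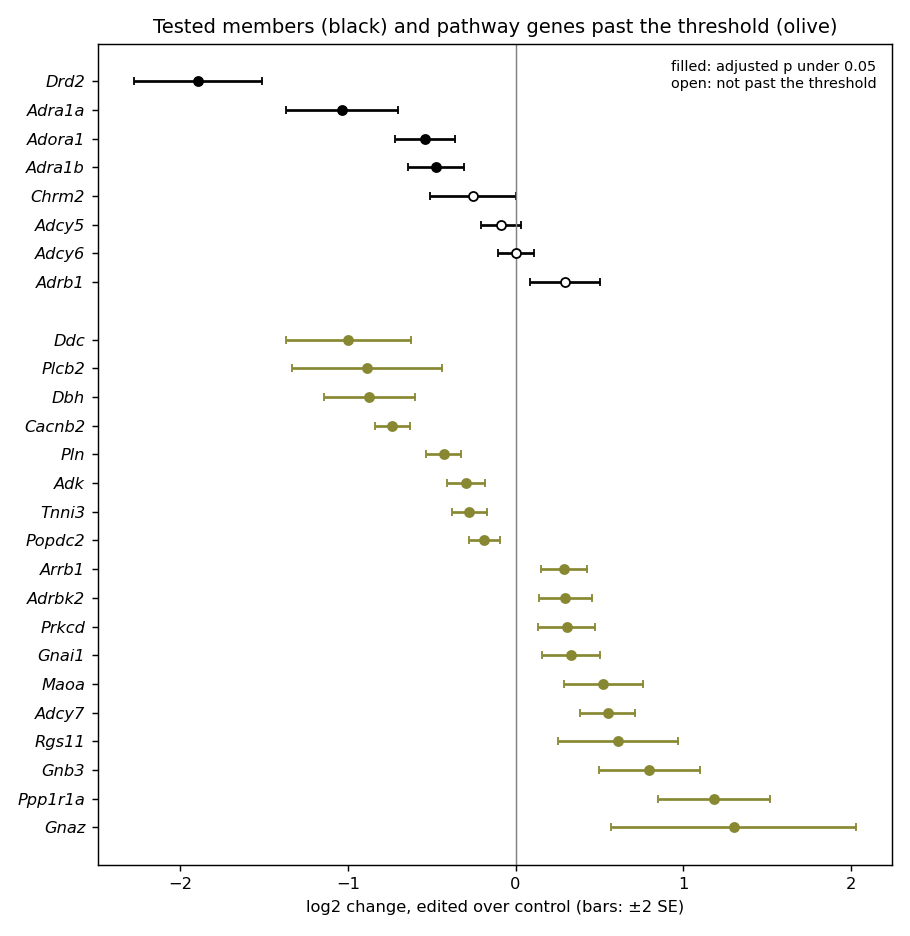
Log2 change, edited over control, with bars of ±2 SE, for the 8 tested members (black) and the 18 other pathway genes past the threshold (olive); open symbols did not pass. Drd2 has the lowest value shown at -1.89, and Dbh lies at -0.87.

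Downstream of the receptors, the few G protein subunits and regulators that were called went up. Among all tested genes 4.93% were called higher and 4.74% lower. The median log2 change was 0.04 for the tested subunits and 0.11 for the tested regulators. Of 25 tested subunits 3 rose and 0 fell: Gnai1, an inhibitory alpha subunit (15.6 ± 1.2 to 19.7 ± 1.4 CPM, adjusted p 0.0272, edgeR), Gnb3 (3.04 ± 0.28 to 5.30 ± 0.16, adjusted p 0.00515) and Gnaz (0.564 ± 0.059 to 1.37 ± 0.67, adjusted p 0.0384; SD, n = 3). Gnai2, the subunit with the highest level per length, was at 415 ± 30 and 403 ± 31 CPM. Of 23 tested RGS proteins, receptor kinases and arrestins 3 rose and 0 fell. They were Arrb1, the beta-arrestin that takes activated receptors out of use (34.8 ± 2.3 to 42.5 ± 1.9 CPM, adjusted p 0.0178), the receptor kinase Adrbk2 (33.5 ± 1.7 to 41.2 ± 4.3, adjusted p 0.0311) and Rgs11 (2.25 ± 0.32 to 3.44 ± 0.03, adjusted p 0.0461; SD, n = 3). Rgs5, a pericyte gene with the highest level per length of that list, was at 797 ± 17 and 715 ± 34 CPM and did not pass (adjusted p 0.0742). Among the 6 tested cyclases outside the members, Adcy7 rose from 26.5 ± 1.7 to 38.8 ± 3.9 CPM (log2 0.55, SE 0.08, adjusted p 0.00129), and Adcy4, the highest per length, was at 58.6 ± 0.1 and 54.4 ± 4.4 CPM. Among the subunits and regulators the call of Gnb3 held without each single library, while Arrb1 lost its call without control 3 (adjusted p 0.124), Adrbk2 without control 1, 2 or 3 or edited 3 (at most 0.174) and Rgs11 without any 1 of the 6 (at most 0.215). Gnai1 lost its call without control 1 or 3 or edited 1 or 3 (at most 0.140), and Gnaz without each library but edited 2 (at most 0.193).

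The effectors of these receptors that were called went in both directions. Of 19 tested targets of cAMP and protein kinase A, 4 fell and 1 rose, while 4.74% of all tested genes were called lower and 4.93% higher. The calcium channel subunit Cacnb2 fell to 60.1% of the control level (adjusted p 1.22e-05, edgeR) and Pln, the brake on the calcium pump that protein kinase A releases, to 74.3% (adjusted p 4.65e-04). Tnni3, the cardiac troponin I with the highest level per length of the list, fell to 82.6% (adjusted p 0.00548), and Popdc2, a cAMP-binding membrane protein, to 87.9% (adjusted p 0.0252). Ppp1r1a, a phosphatase inhibitor activated by protein kinase A, rose from 4.92 ± 0.81 to 11.2 ± 2.4 CPM (SD, n = 3; adjusted p 0.00145). The 7 ventricular muscle markers summed to less in the same hearts, at 57170 to 61087 CPM against 67866 to 70274 CPM in controls. Myh6 made up the largest part of this sum, with means of 37362 CPM in controls and 32223 CPM in edited hearts. Of the 7, 3 (Myl3, Myh6 and Tnnt2) were called lower and 1 (Hey2, log2 0.43) higher, and Irx4 was not called (log2 0.08). The part of these markers in the 4 falls among the targets was not tested. Tnni3 lost its call without control 3 (adjusted p 0.0779) and Popdc2 without control 1, control 3 or edited 3 (at most 0.145).

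Of 19 tested genes of the Gq arm used by alpha-1 receptors, 1 rose and 1 fell. This count is about the share over all tested genes, of which 9.66% were called in either direction. Prkcd, a protein kinase C, went from 19.5 ± 1.6 to 24.2 ± 1.9 CPM (adjusted p 0.0367, edgeR), and Plcb2, a phospholipase C, from 3.00 ± 0.32 to 1.64 ± 0.44 CPM (SD, n = 3; adjusted p 0.0238). Dgkz, a diacylglycerol kinase, was the highest per length at 205 ± 4 and 221 ± 15 CPM. Prkcd lost its call without control 1, control 3, edited 2 or edited 3 (at most 0.178), and Plcb2 without any library other than edited 2 (at most 0.0876). Of 11 tested genes of adenosine handling, Adk, the kinase that removes adenosine, fell from 88.4 ± 1.6 to 71.9 ± 3.8 CPM (adjusted p 0.00619), a call lost without control 3 (0.0577), and Slc29a1, a nucleoside transporter, was the highest per length at 109 ± 3 and 98.2 ± 7.2 CPM (SD, n = 3). None of the 5 tested channel genes that M2 and A1 receptors act on passed: Kcnj5, a subunit of the muscarinic potassium channel and the highest per length, was at 113 ± 14 and 105 ± 14 CPM. Of the 3 tested genes of acetylcholine supply and breakdown none passed. At an unadjusted p under 0.05 the counts were 0 for the channels and 1 (Ache) for the acetylcholine genes, 0 and 0 with DESeq2 and 1 and 1 with limma voom. Bche, a cholinesterase, was at 27.3 ± 1.9 and 27.2 ± 4.7 CPM (SD, n = 3). The choline transporter Slc5a7 was highest in edited 3 at 5.19 CPM, the library in which 15 autonomic neuron markers summed to 103 CPM against 55.0 to 76.6 in the other 5.

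Some genes listed as markers of conduction cells moved with the receptor falls. Of 13 tested markers of the conduction system and Purkinje fibres 3 fell and 0 rose, while 4.74% of all tested genes were called lower. Cntn2, a cell adhesion protein of these fibres, measured 19.6, 14.6 and 15.9 CPM in controls and 5.54, 6.73 and 4.41 CPM in edited hearts. Pcp4 measured 3.47, 1.90 and 3.08 CPM against 0.938, 0.961 and 0.726 CPM, and the potassium channel gene Kcnd2 18.6, 22.9 and 16.2 CPM against 9.34, 7.80 and 6.64 CPM. These 3 were named after their values were seen, and all were higher in every control than in any edited heart, as Drd2 was. The groups did not overlap for 7 of the 13 tested markers, of which Irx3 and Gja5 lay higher in edited hearts. Among all tested genes 29.3% did not overlap. The whole list of 14 summed to 387 to 433 CPM in controls and 371 to 384 CPM in edited hearts, its most abundant marker Kcne1 was at 238 ± 31 and 208 ± 21 CPM (SD, n = 3), and Isl1 had 0 reads in controls. Which cells the RNA of Cntn2, Pcp4 and Kcnd2 came from, and the part of conduction cells in the fall of Drd2, were not tested. None of the 6 tested atrial markers passed.

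**Figure D5:**
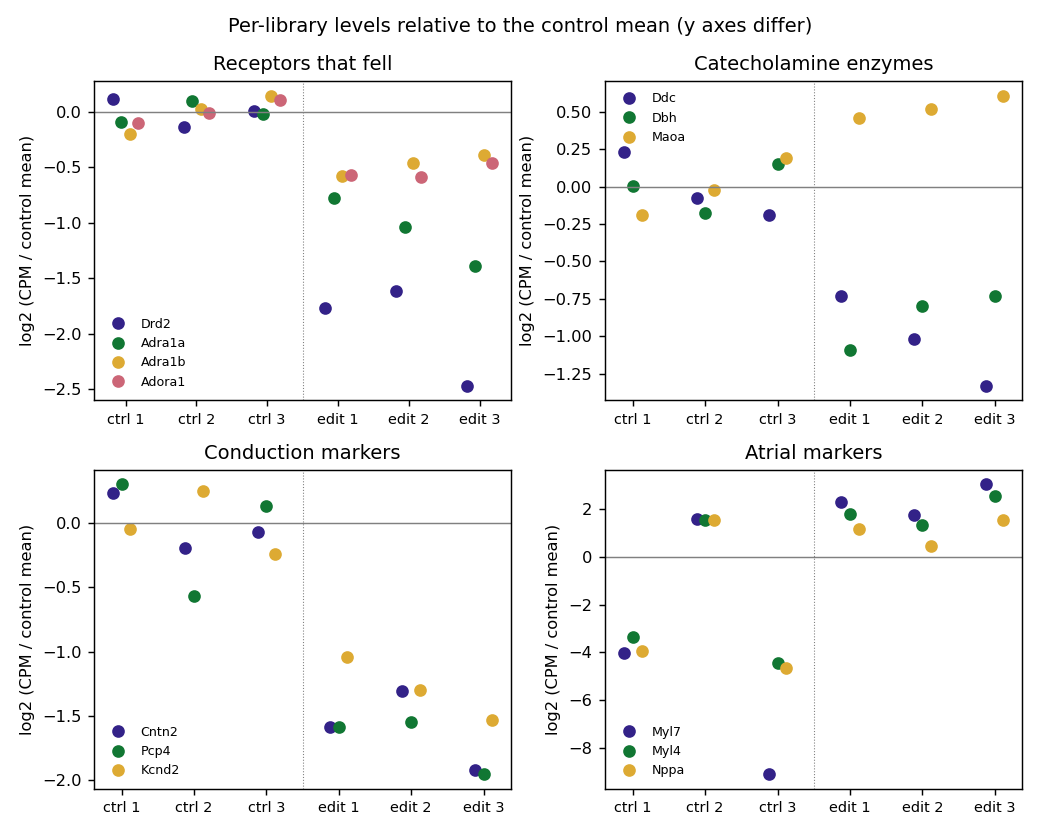
Log2 of each library's CPM over the control mean, with control libraries left of the dotted line. Shown are the 4 receptors that fell, 3 catecholamine enzymes, the 3 listed conduction markers called lower and 3 atrial markers. Irx3 and Gja5, listed conduction markers that lay higher in edited hearts, are not shown. The receptors, Ddc, Dbh, Cntn2, Pcp4 and Kcnd2 lie below 0 in all 3 edited hearts, whereas the atrial markers are low in controls 1 and 3 and high in control 2.

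For each receptor that fell, the 5 tested genes with the most similar profile were listed by Pearson's r of log2 CPM over the 6 libraries, out of 13720 genes with a mean of at least 1 CPM. The 2 groups of libraries lie apart in these genes, so r mostly reflects the group difference. Each listed gene had a negative log2 change, which the choice by r largely fixed in advance. For Drd2 these were Clybl (r = 0.998), Phyhd1 (0.995), the oxygen-binding protein myoglobin Mb (0.994), Tmem141 (0.994) and Cntn2 (0.993). All 5 were called lower. The change of Cntn2 was -1.58 on the log2 scale, while the other 4 lay between -0.41 and -0.23. For Adora1 they were the lipid phosphatase gene Lpin1 (r 0.997, log2 -0.68, SE 0.07), Zkscan3, Pcp4l1, Nfe2l1 and Emilin2, of which 4 were called lower. For Adra1a they were Cops3 (0.997), Asic1, Pla2g4e, Ppa2 and Mtfr1l, of which 3 were called lower. For Adra1b they were Plbd1 (0.998), Slc38a2, Dyrk1b, Nfs1 and Rab3a, of which 1 was called lower.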

How the data were processed

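RNA-seq of 3 edited and 3 control mouse hearts was analysed from 1 table of raw read counts per gene that the authors deposited. The submitters' processing notes name STAR, featureCounts, cutadapt and FastQC and the build mm10; for versions, strand and multi-mapping nothing was given in the sources used here. Each library had 2 columns of counts, which differed for 0 genes, and the first was used. The length column, in bases per gene, is the authors' as well. Genes were filtered with edgeR's filterByExpr (14879 of 35976 kept), scaled by TMM (factors 0.971 to 1.04) and compared with edgeR 4.0.16's robust quasi-likelihood test (R 4.3.3; group as the only term) with Benjamini-Hochberg adjustment. Differences are log2, edited over control. Alternatives used other scaling, filters and thresholds, DESeq2 1.42.0, limma 3.58.1 voom, the replicate number as a block, Myl7 as a covariate and fewer libraries. The steps were tested on simulated data. The members, lists, covariate and left-out controls were chosen with earlier results of these data known. Named genes are the members, list genes past the threshold (up to 6 a list), the gene of each list with the highest level per length, markers, and the 5 most similar profiles. One gene that this rule names is not reported here. Replicates differed by more than sampling noise (chi-square per degree of freedom at least 3.95). Genes sharing exon bases are named where this concerns a member.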

Additional observations from a re-analysis of the deposited data

How the results depend on the processing

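The count of 4 members past the threshold was 4 or 5 without each single library, as it was with other scaling, other filters, other tests and other thresholds. It was 2 with Myl7 as a covariate (Drd2 and Adra1a) and 1 with controls 1 and 3 left out (Drd2), a fit in which the lone control is assumed to vary like the edited hearts. The fifth call was Adrb1, higher, without edited 2, without a filter and with voom, and Chrm2, lower, without edited 3. Adcy6 changed sign within its error without control 2 and without edited 3; its log2 change ranged from -0.028 to 0.027 (-0.023 without control 2) when single libraries were left out. The 18 calls among the other pathway genes were less stable: 31 without a filter, 33 with voom, 8 at a threshold of 0.01, 30 at 0.1, 2 with Myl7 as a covariate and 1 with controls 1 and 3 left out, and 8 to 24 without single libraries (11 without control 1, 8 without control 3 and 11 without edited 3). The causes were not tested. Same-numbered libraries did not deviate together (r between -0.09 and 0.02), and not every library correlated best with its own number, so the numbers are taken as no pairing. With the replicate block 4 members and 15 pathway genes were called. Groups of 3 limit the precision, and counts of 23 to 137 reads for Drd2 and 43 to 128 for Adra1a limit it further.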
